A study of Drosophila melanogaster with 8 samples.

Results

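The yolk protein genes Yp1, Yp2 and Yp3 and the yolk receptor gene yl of Drosophila melanogaster were followed across 2 stages and 2 genotypes. They were taken by their gene symbol and are 4 of the 15296 gene models listed in each library. RNA from whole females was sequenced from larvae of the third instar and from adults aged 2 to 3 days, all kept on standard food at 18 °C. A4 animals were In(2)A4/In(2)A4, homozygous for an inversion of chromosome 2, and A12 animals were A12/A12, for which the labels name no rearrangement. The design set wild-type animals against animals with position effect variegation, in which a gene moved beside heterochromatin is silenced in some cells and not in others. Homozygous A4 larvae were recognised as the non-fluorescent larvae of a stock that carried the inversion over a CyO-GFP balancer, so that each A4 larva had parents that carried the balancer. Each of the 4 combinations of stage and genotype was measured in 2 libraries.

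Yolk proteins are made by the female fat body and by the follicle cells that surround the growing oocyte, and are secreted into the haemolymph or towards the oocyte. The oocyte takes them up by endocytosis through Yolkless, the product of yl, a receptor of the low-density lipoprotein receptor family, and stores them as food for the embryo. Transcription of the yolk protein genes is set by sex, through the Doublesex protein, and by the hormones of adult life, while yl is transcribed in the female germline. Larval ovaries hold no yolk-forming oocytes, so that these genes are textbook markers of adult females.

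All 4 genes lie on chromosome X, positions being given in build dm3 and counted from 1. Yp2 (X, 9945049 to 9946669, minus strand) and Yp1 (X, 9947885 to 9949531, plus strand) are divergent neighbours with 1215 bases between their gene models. Yp3 (X, 13653578 to 13655200, plus strand) and yl (X, 14087252 to 14093996, plus strand) stand apart from them. The closest gene models beside the pair did not share its levels. Cht6, on the Yp2 side, stood at 0.808 to 1.83 FPKM in the adult libraries and CG15312, on the Yp1 side, at 14.4 to 29.4 FPKM, where Yp1 and Yp2 stood at 1706 to 3053 FPKM. FPKM counts mapped fragments per kilobase of gene model, scaled to the size of the library, so levels of different genes can be set side by side.

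The libraries were checked before the genes were compared. The library labelled A4 larvae replicate 2 stood apart, with 17 of 30 testis marker genes at 1 FPKM or more, where each of the other 7 libraries had 1 to 5. Their summed level was 92.6 FPKM in that library, 5.29 FPKM in A4 larvae replicate 1 and 8.87 and 11.8 FPKM in the A12 larvae, although all were labelled female. The larval results are therefore also given without that library, and the part of testis RNA in them was not tested. The 4 adult libraries had summed testis marker levels of 24.5 to 36.7 FPKM, with twe, bol and gdl among the genes that made them up. Female germline markers summed to 902.3 to 1215 FPKM in the adults and to 28.2 to 48.3 FPKM in the larvae. Read counts are not in the files, so the absolute depth is unknown.

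Yolk protein RNA was abundant in the adults and scarce in the larvae. Yp1 stood at 2073 and 1938 FPKM in the A12 adults and at 2842 and 1706 FPKM in the A4 adults, with 2.44 and 1.26 FPKM in the A12 larvae and 0.724 and 0.843 FPKM in the A4 larvae, each pair in the order replicate 1, replicate 2. Yp2 stood at 2447 and 2329 FPKM in the A12 adults, 3053 and 1907 FPKM in the A4 adults, 2.25 and 1.40 FPKM in the A12 larvae and 1.55 and 1.69 FPKM in the A4 larvae. By FPKM the levels of these divergent neighbours thus moved side by side in the adults, with A4 adults replicate 1 highest and A4 adults replicate 2 lowest for both. A4 adults replicate 2 was also the lowest adult library for Yp3, so that low was not particular to the pair. Yp3 was the highest of the 3 in every library, at 3797 and 3792 FPKM in the A12 adults, 3335 and 2353 FPKM in the A4 adults, 3.75 and 4.27 FPKM in the A12 larvae and 1.85 and 2.32 FPKM in the A4 larvae. The receptor gene yl stood at 484.5 and 380.4 FPKM in the A12 adults, 518.3 and 464.8 FPKM in the A4 adults, 0.529 and 0.337 FPKM in the A12 larvae and 0.328 and 0.384 FPKM in the A4 larvae. For each gene the lowest adult library lay far above the highest larval one, and 43.6% of the tested genes had all adult above all larval libraries.

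**Figure D1:**
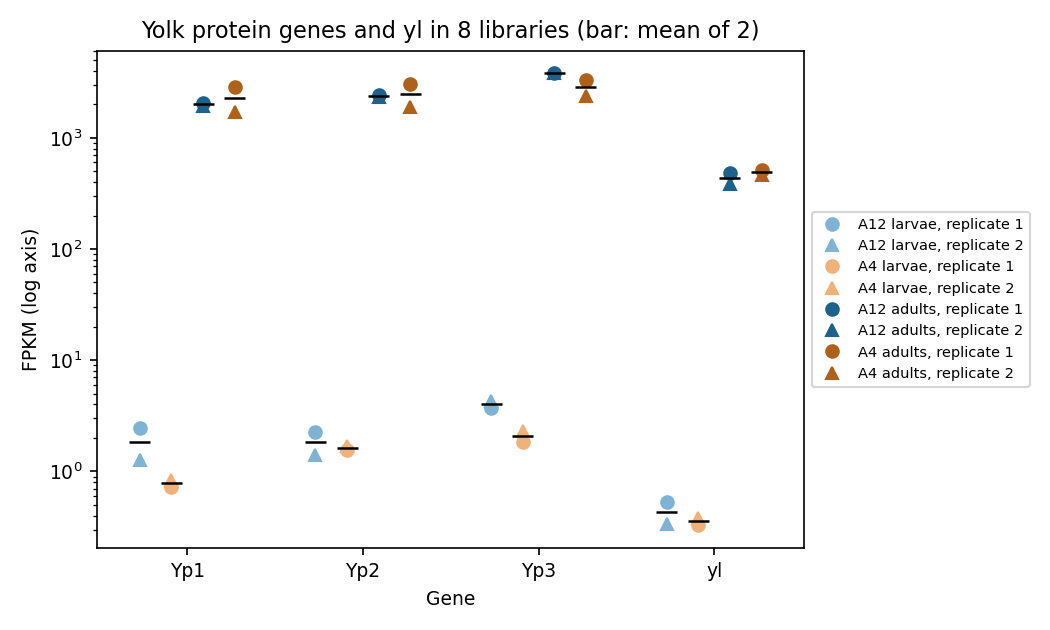
FPKM on a log axis for Yp1, Yp2, Yp3 and yl in each library, coloured by group, with circles for replicate 1, triangles for replicate 2 and a bar at the mean of the 2. Adult values lie between 380.4 and 3797 FPKM and larval values between 0.328 and 4.27 FPKM.

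In adult females the yolk protein genes stood among the most abundant of the gene models of at least 300 bases. Yp3 ranked 33 and 35 in the A12 adults and 41 and 45 in the A4 adults. Yp1 ranked between 60 and 90 and Yp2 between 53 and 76 over the 4 adult libraries. The receptor gene ranked between 212 and 274. Summed, the 3 yolk protein genes reached 8316 and 8059 FPKM in the A12 adults and 9230 and 5966 FPKM in the A4 adults, which was 0.945% to 1.19% of the FPKM of all models of that length. The sum was 12.8 to 21.2 times the level of yl. In the larvae Yp3 lay above 19.7% to 31.5% of the tested genes and yl above 6.31% to 8.37%.

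Between the stages each of the 4 genes rose in both genotypes, and the size of the rise shows how far yolk gene RNA separates adults from larvae. In A12 the mean of Yp1 went from 1.85 ± 0.833 to 2005 ± 95.4 FPKM, that of Yp2 from 1.83 ± 0.604 to 2388 ± 83.2 FPKM and that of Yp3 from 4.01 ± 0.371 to 3794 ± 2.98 FPKM (SD, n = 2). On the log2(FPKM + 1) scale these are differences of 9.49 ± 0.30, 9.74 ± 0.27 and 9.57 ± 0.22 (standard error), with limma adjusted p-values of 8.3e-07, 6.54e-07 and 4.49e-07. The added 1 FPKM is as large as some larval levels, so this scale understates the change, and the ratios of group means were 1084, 1308 and 945.9. The larval means are small and uncertain, and the ratios carry that error.

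The receptor gene rose by a ratio of means similar to that of Yp3. In A12 yl went from 0.433 ± 0.135 to 432.5 ± 73.6 FPKM (SD, n = 2), a log2 difference of 8.23 ± 0.19 (limma adjusted p = 4.49e-07) and a ratio of means of 999.1. In A4 it went from 0.356 ± 0.0391 to 491.6 ± 37.8 FPKM, a log2 difference of 8.50 ± 0.19 (limma adjusted p = 7.46e-07) and a ratio of 1381. Its larval level lies under the added 1 FPKM, and with 0.1 FPKM added the A12 difference was 9.68. The gene entered the test through its adult level alone, so its p-values add no support beyond the levels themselves.

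In A4 the yolk protein genes rose as they did in A12. Yp1 went from 0.783 ± 0.0845 to 2274 ± 803.6 FPKM, Yp2 from 1.62 ± 0.0962 to 2480 ± 810.4 FPKM and Yp3 from 2.08 ± 0.335 to 2844 ± 694 FPKM (SD, n = 2). The log2 differences were 10.27 ± 0.30, 9.85 ± 0.27 and 9.83 ± 0.22, with limma adjusted p-values of 9.54e-07, 8.93e-07 and 7.46e-07. All 4 genes passed in each genotype, where 41.1% of the 9679 tested genes rose in A12 and 55.8% in A4. Only 2 tested genes rose further than Yp1 in A4 and 8 did in A12. Genes were tested where their 8 libraries averaged 1 FPKM or more, a filter that yl, with a mean of 0.394 FPKM over the larvae, passed through its adult level alone. That yl passed the test therefore adds no support. Without A4 larvae replicate 2 the A4 differences were 10.32 for Yp1, 9.89 for Yp2, 9.94 for Yp3 and 8.53 for yl, and all 4 passed. The median of all tested genes also lay higher in adults, by 0.48 in A12 and 0.87 in A4, which leaves differences of 7.63 to 9.40 relative to that median for the 4 genes. In RNA from whole animals fewer cells of a type and less RNA per cell cannot be told apart.

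Between adults of the 2 genotypes 0 of the 4 genes passed in limma, and 0 had an unadjusted p under 0.05, where 0.734% of all tested genes were called. The A4 minus A12 log2 difference in adults was 0.14 ± 0.30 for Yp1, with a 95% interval of -0.56 to 0.84 (limma adjusted p = 0.941), and 0.02 ± 0.27 for Yp2, with an interval of -0.61 to 0.64 (adjusted p = 1). The A4 values of both genes enclosed the A12 values. For yl the difference was 0.19 ± 0.19, with an interval of -0.25 to 0.64 (limma adjusted p = 0.781), and the libraries of the genotypes overlapped. The intervals still admit a difference of up to 1.79-fold for Yp1 and 1.56-fold for Yp2 and yl.

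Yp3 was lower in both A4 adult libraries than in either A12 adult library, but the difference did not pass. The mean was 3794 ± 2.98 FPKM in A12 adults and 2844 ± 694 FPKM in A4 adults (SD, n = 2), a log2 difference of -0.44 ± 0.22 with a 95% interval of -0.96 to 0.08 (limma adjusted p = 0.537). The same arrangement of libraries was found for 26.2% of the tested genes. Over the alternatives the difference kept its sign, between -0.70 and -0.06, with adjusted p-values of 0.413 to 1. The authors' deposited table gives log2 ratios of A4 to A12 adults of 0.18 for Yp1, 0.05 for Yp2, -0.42 for Yp3 and 0.18 for yl.

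The makeup of the yolk protein RNA was set beside its amount. Yp3 made up 45.7% and 47.1% of the FPKM sum of the 3 genes in the A12 adults and 36.1% and 39.4% in the A4 adults. Yp1 made up 24.9% and 24.0% in the A12 adults and 30.8% and 28.6% in the A4 adults, and Yp2 29.4% and 28.9% against 33.1% and 32.0%. The genotypes did not overlap in any of the 3 shares, which are parts of the same sum and so not separate observations. Among levels of the tested genes, 26.2% had both A4 adults under both A12 adults, a figure for that direction alone. No such figure was made for shares. The ratio of Yp3 to Yp1 was 1.83 and 1.96 in the A12 adults and 1.17 and 1.38 in the A4 adults. With 2 libraries per genotype these shares were not tested, and depth and scaling of a library cancel in them.

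**Figure D2:**
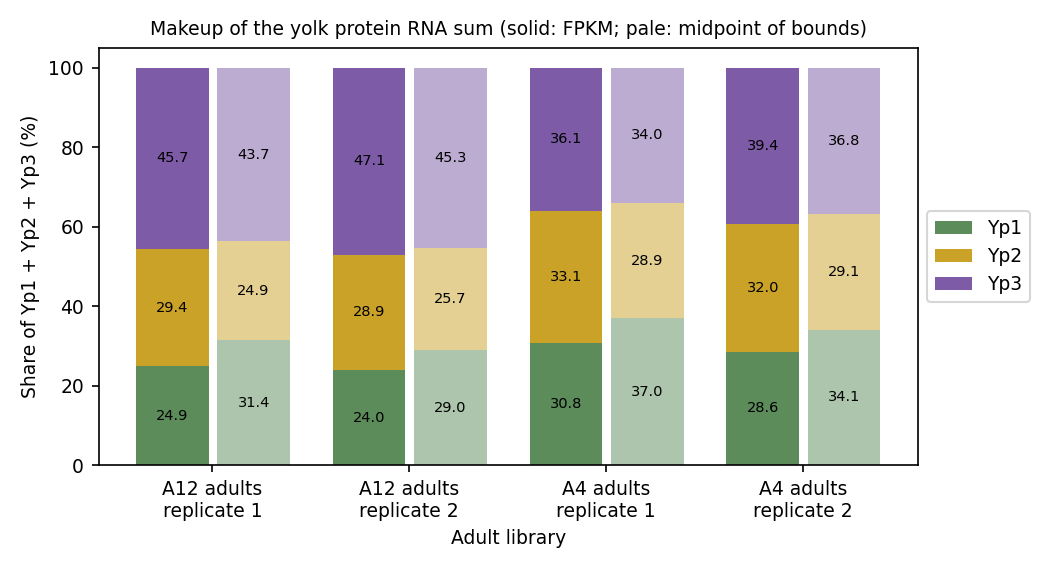
Percent of the summed level of Yp1, Yp2 and Yp3 held by each gene in the 4 adult libraries, from the FPKM (solid) and from the midpoint of the FPKM bounds (pale). By either measure Yp3 holds a smaller share in both A4 adults than in both A12 adults.

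The level of each yolk protein gene depends on which deposited value is read. Each FPKM came with a lower and an upper confidence bound, and in the adults none of the 12 values of Yp1, Yp2 and Yp3 lay between its own bounds. Of these, 11 lay above and 1 below. Yp2 in A4 adults replicate 1 was listed at 3053 FPKM with bounds of 1713 and 1766, which is 1.76 times the midpoint. Yp1 in A12 adults replicate 1 was listed at 2073 FPKM with bounds of 2592 and 2659, which is 0.79 times the midpoint. For yl the FPKM was 0.999 to 1.12 times the midpoint in the adults, and inside its bounds in A12 adults replicate 1 alone. Among models of at least 300 bases and 10 FPKM, 20.9% to 28.4% per library lay outside their bounds. Of the 16 larval values of the 4 genes, 1 lay outside, that of Yp3 in A12 larvae replicate 2.

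**Figure D3:**
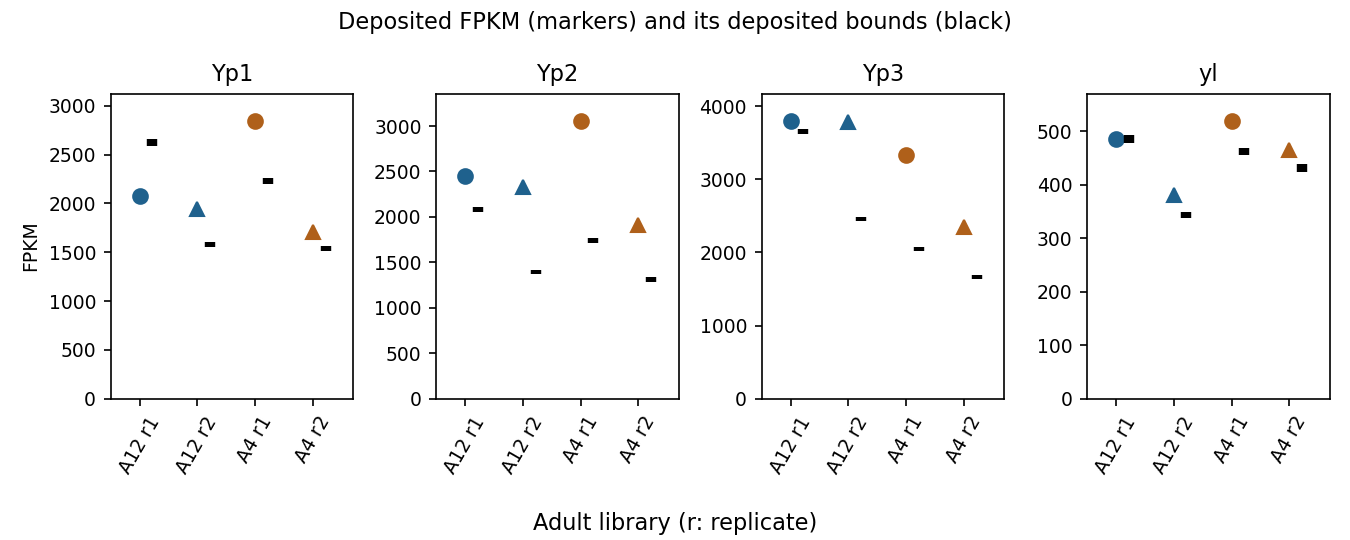
Deposited FPKM (markers) and the interval between its deposited bounds (black, drawn to the right of each marker) for the 4 adult libraries, 1 panel per gene, axes from 0. For the yolk protein genes the markers lie off their intervals, by up to 1.76 times for Yp2 in A4 adults replicate 1.

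Read from the midpoints, the adult levels spread differently over the libraries. Yp3 then stood at 3652 and 2463 FPKM in the A12 adults and at 2047 and 1661 FPKM in the A4 adults, and the log2 difference between the genotypes was -0.70 ± 0.23, which also did not pass (limma adjusted p = 0.413). Yp1 stood at 2625 and 1580 against 2228 and 1541 FPKM, and the sign of its genotype difference turned to -0.14. That of Yp2 turned to -0.17. A12 adults replicate 1 was then highest for Yp1, Yp2 and Yp3, with Yp2 at 2081 FPKM there, and A4 adults replicate 2 was still lowest. The close replicate values of Yp3 in the A12 adults, 3797 and 3792 FPKM, were not seen in the midpoints, where the first was 1.48 times the second. By midpoints Yp3 again held a smaller share, and Yp1 and Yp2 larger shares, in both A4 adults than in both A12 adults. The order of the 3 genes within a library was not kept, since Yp1 held more than Yp2 in all 4 adult libraries by midpoints and less by FPKM. The ratio of Yp3 to Yp1 by midpoints was 1.39 and 1.56 in the A12 adults and 0.919 and 1.08 in the A4 adults. No source used here gives the step that set an FPKM apart from its bounds, and the cause was not tested. The 3 genes are paralogs, and how reads matching more than 1 of them were counted is not given.

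The larvae carried traces of yolk gene RNA, lower in A4 for Yp1 and Yp3. Both A4 larvae lay under both A12 larvae for Yp1 and for Yp3, an arrangement found for 56.5% of the tested genes. Yp3 fell from 4.01 ± 0.371 to 2.08 ± 0.335 FPKM (SD, n = 2), a log2 difference of -0.70 ± 0.22 (limma adjusted p = 0.0452). The values for Yp1 were -0.65 ± 0.30 (adjusted p = 0.126), for Yp2 -0.09 ± 0.27 (adjusted p = 0.808) and for yl -0.08 ± 0.19 (adjusted p = 0.776), and none of these passed in limma. Thus 1 of the 4 genes was called, where 34.7% of all tested genes were called, 25.9% as lower and 8.75% as higher in A4. The authors' deposited table gives larval log2 ratios of -1.24, -0.17, -0.95 and -0.28 for Yp1, Yp2, Yp3 and yl.

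That larval call of Yp3 was not stable. The median of all tested genes lay lower in A4 larvae, by -0.43, and relative to it the difference of Yp3 was -0.28. After median centring it was -0.24 (limma adjusted p = 0.481). Without A4 larvae replicate 2, the library with testis RNA, it was -0.81 and did not pass (adjusted p = 0.0794). It also did not pass without A4 larvae replicate 1, A12 larvae replicate 1, A12 larvae replicate 2, A12 adults replicate 1 or A12 adults replicate 2, with adjusted p-values of 0.0629 to 0.169, nor with midpoints in place of FPKM (-0.38, adjusted p = 0.231). With the testis RNA library, A4 larvae replicate 2, left out, the larval differences of Yp1, Yp2 and yl were -0.69, -0.13 and -0.11, and these did not pass either. The bounds around the larval levels were wide. For Yp1 in A4 larvae replicate 1 they ran from 0.261 to 1.24 FPKM, and for yl from 0.18 to 0.491 FPKM.

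The genotype difference in adults was set against that in larvae. The interaction was 0.78 ± 0.42 for Yp1 (limma adjusted p = 0.223), 0.11 ± 0.38 for Yp2 (adjusted p = 0.856), 0.27 ± 0.31 for Yp3 (adjusted p = 0.566) and 0.27 ± 0.27 for yl (adjusted p = 0.496). None of the 4 passed and 0 had an unadjusted p under 0.05 in limma, where 17.6% of all tested genes passed. Without A4 larvae replicate 2 the values were 0.83, 0.15, 0.38 and 0.30, with adjusted p-values of 0.304 to 0.839. Against a median of 0.37 over all tested genes, Yp1 lay above and the other 3 below.

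**Figure D4:**
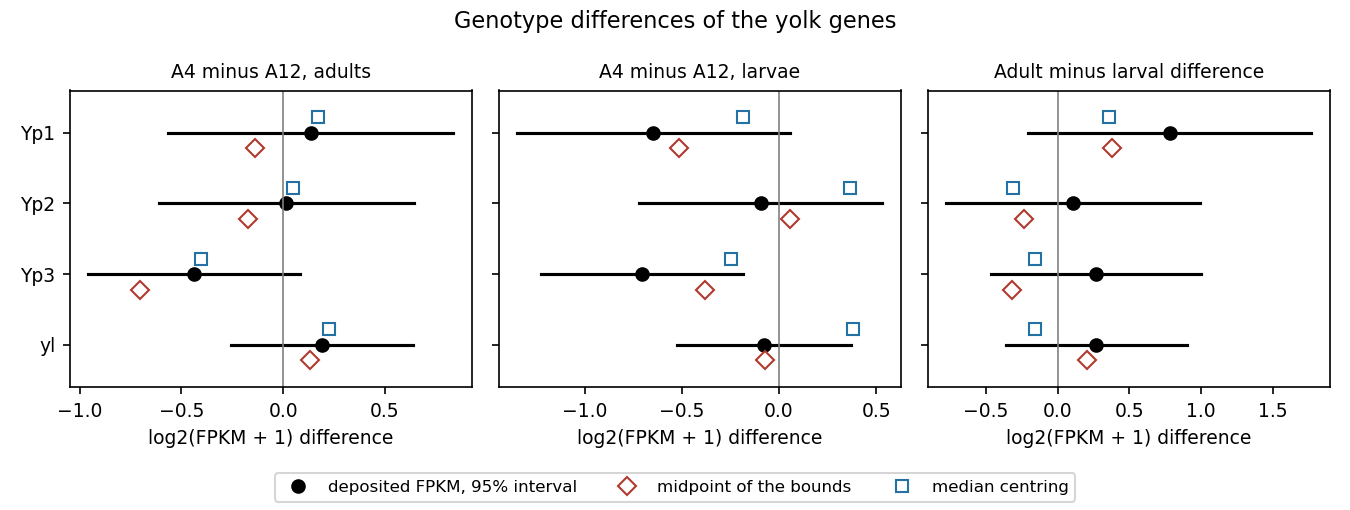
Differences of log2(FPKM + 1) for the 4 genes, A4 minus A12 in adults, A4 minus A12 in larvae, and the adult minus the larval difference, with 95% intervals from limma (black), beside the values after median centring (squares) and from the midpoints of the bounds (diamonds). Of the 12 intervals, that of Yp3 in larvae alone lies off 0, and its centred value of -0.24 lies nearer to 0.

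By FPKM, replicates of the yolk protein genes were farther apart in A4 adults than in A12 adults, and by midpoints the order was the reverse. A4 adults replicate 1 stood above replicate 2 by 0.74 on the log2 scale for Yp1, 0.68 for Yp2 and 0.50 for Yp3, gaps wider than those of 94.7%, 93.9% and 88.2% of the tested genes. In the A12 adults the gaps were 0.10, 0.07 and 0.00, and for yl they were 0.16 in A4 and 0.35 in A12. By midpoints the higher replicate of Yp1, Yp2 and Yp3 was 1.45, 1.32 and 1.23 times the lower in the A4 adults and 1.66, 1.49 and 1.48 times in the A12 adults. Of the eggshell markers of the follicle cells, Cp7Fb and Cp7Fc were lower in A4 adults replicate 1 than in replicate 2. The sum over 21 genes, with none at 0, moved with the A4 libraries. It was 13823 FPKM in A4 adults replicate 1 and 5096 FPKM in replicate 2. In the A12 adults that sum was 5905 and 9349 FPKM, while the yolk protein sum was 8316 and 8059 FPKM. Cp15 alone held 2343 and 6236 FPKM of the A12 sums, and 4540 and 1076 FPKM of the A4 sums. The median of the 21 genes was 68.4 and 64.3 FPKM in the A12 adults and 167.4 and 54.8 FPKM in the A4 adults. The higher A12 sum in replicate 2 thus followed Cp15 and not the median. Single genes moved both ways between the A12 adults, with yellow-g2 at 83.5 and 1.07 FPKM and Vm32E at 121.2 and 339.9 FPKM. Fat body markers summed to 1889 to 2128 FPKM and female germline markers to 902.3 to 1215 FPKM over the 4 adult libraries. Adh alone held 1394 and 1450 FPKM of the fat body sums in the A12 adults, and 1597 and 1352 FPKM in the A4 adults. The part of the mix of egg stages in these gaps was not tested.

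**Figure D5:**
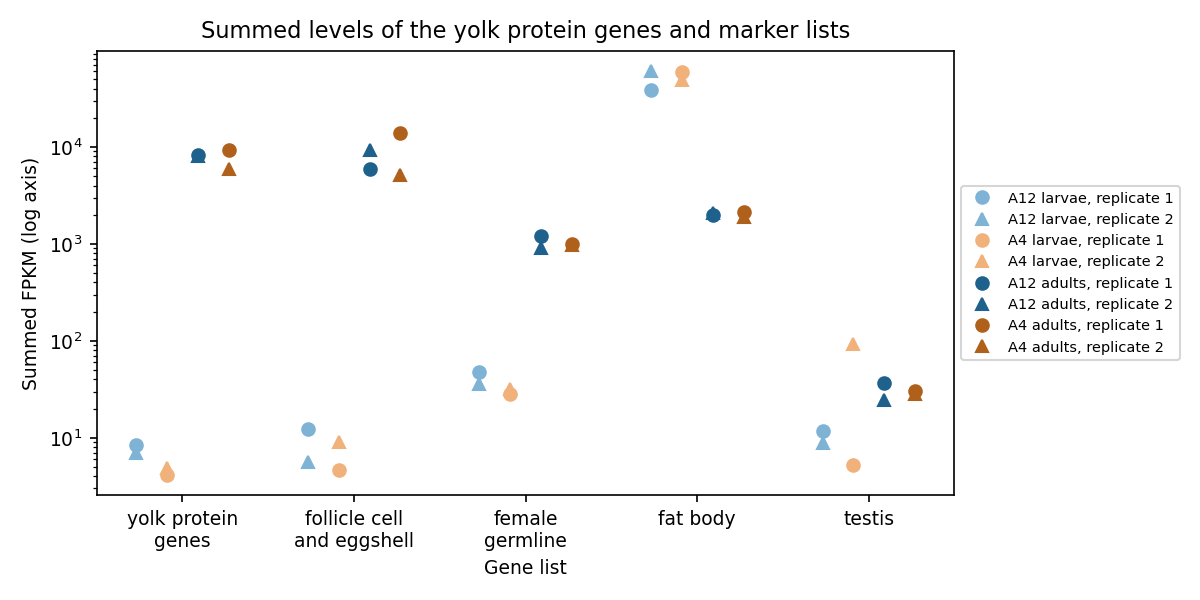
Summed FPKM on a log axis of the yolk protein genes and of 4 marker lists in each library, coloured by group, with circles for replicate 1 and triangles for replicate 2. The testis sum of A4 larvae replicate 2 reaches 92.6 FPKM, and the eggshell sums of the A4 adults lie at 13823 and 5096 FPKM.

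Markers of the follicle cells and the female germline rose between the stages, while more genes of the fat body list fell than rose. Of 21 follicle cell and eggshell genes tested, 20 rose from larvae to adults in A12 and 21 in A4, with median log2 differences of 5.12 and 6.52 against 0.48 and 0.87 over all tested genes. Vm26Aa, a vitelline membrane protein gene, went from 0.348 and 0 FPKM in the A12 larvae to 118.6 and 155 FPKM in the A12 adults. Of 17 female germline genes, 14 rose in A12 and 17 in A4, with medians of 4.18 and 4.51. Without A4 larvae replicate 2, 21 eggshell and 16 germline genes rose in A4. Most of these genes passed the filter on low values only through the adults, as 2 of the 21 eggshell and 6 of the 17 germline genes averaged 1 FPKM or more over the larvae, so their counts add no support. Of 13 fat body genes tested, 4 rose and 8 fell in A12, where 41.1% and 17.6% of all tested genes did. In A4 3 rose and 6 fell, where 55.8% and 13.9% did, and the medians were -1.91 in A12 and -0.38 in A4. The storage protein gene Lsp2, which is active in the larval fat body, fell by 10.96 on the log2 scale in A12 (limma adjusted p = 4.49e-07). The gene to, of the same list, rose by 5.19 in A12 (limma adjusted p = 3.15e-06), so the list did not move as a whole. The germline gene osk, whose RNA is placed at the rear pole of the oocyte, stood at 165 and 115.1 FPKM in the A12 adults and 120.9 and 124.8 FPKM in the A4 adults. Between adults 0 genes of the eggshell and germline lists were called in limma, where 0.734% of all tested genes were. An unadjusted p under 0.05 was found for 8 of the 21 eggshell and 2 of the 17 germline genes, and for 1020 of all 9679. The medians were 0.78 for the eggshell and 0.06 for the germline genes against -0.05 over all genes. Without A12 adults replicate 1 the eggshell median was 0.59. The count of 0 eggshell genes did not hold in that fit, which leaves 1 A12 adult library. Without A4 adults replicate 1 the eggshell median was 0.34, and without replicate 2 it was 1.25.

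Genes for lipoprotein receptors and lipid carriers moved in both directions. Of 10 genes of lipoproteins and their receptors, 3 rose and 3 fell from larvae to adults in A12, and 5 rose and 1 fell in A4. Over all tested genes 41.1% rose and 17.6% fell in A12, and 55.8% rose and 13.9% fell in A4. After median centring, 3 of the 10 rose and 5 fell in A12, and 3 rose and 3 fell in A4. LpR2, a lipophorin receptor gene, rose from 6.17 and 4.53 to 32.2 and 21.3 FPKM in A12, a log2 difference of 2.11 ± 0.26 (limma adjusted p = 0.000392). LpR1, its paralog, differed by 1.56 ± 0.19 (limma adjusted p = 0.000323). The gene boca, whose product is needed to fold receptors of this family, did not pass between stages in A12 (limma adjusted p = 0.48). It stood at 33.3 and 41.4 FPKM in the A12 adults and at 31.3 and 32.8 FPKM in the A12 larvae. In A4 boca went from 16.2 ± 3.99 FPKM in the larvae to 31.7 ± 6.65 FPKM in the adults (SD, n = 2). Between larvae boca was lower in A4, by a log2 difference of -0.96 ± 0.24 (limma adjusted p = 0.0224). The median over all tested genes was -0.43 there. Of the 10 genes, the number that fell from larvae to adults in A12 was 1 without A12 larvae replicate 1 or without A12 adults replicate 2. Rfabg, the gene of the lipophorin apolipoprotein, stood at 185 and 117 FPKM in the A12 adults and at 83.9 and 89.8 FPKM in the A4 adults. Rfabg did not pass between adults (limma adjusted p = 0.447).

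A list of 17 genes of receptor endocytosis held 2 that act in the eggshell rather than in uptake, fs(1)N, the gene of Nasrat, and fs(1)M3. fs(1)N stood at 0.102 and 0.0845 FPKM in the A12 larvae and at 37.4 and 30.9 FPKM in the A12 adults. fs(1)M3 was listed at 0 in all 4 larval libraries and stood at 35.4 and 27.1 FPKM in the A12 adults. Both passed the filter through their adult levels alone, and no difference is given for them. The gene tral, needed for the traffic of secreted and membrane proteins in the female germline, rose by 2.20 ± 0.26 in A12 (limma adjusted p = 0.00033). The clathrin heavy chain gene Chc stood at 147.2 and 123.7 FPKM in the A12 adults and at 234.9 and 205.6 FPKM in the A12 larvae. In A12 it fell by 0.70 on the log2 scale (limma adjusted p = 0.015). In A4 Chc went the other way, from 96.8 and 91.5 FPKM in the larvae to 130.4 and 142.1 FPKM in the adults. Its interaction was 1.23 ± 0.27 (limma adjusted p = 0.0234). Of the 17 genes, 3 rose and 4 fell in A12, where 41.1% and 17.6% of all tested genes did. In A4 10 rose and 0 fell, where 55.8% and 13.9% did. The 3 that rose in A12 were fs(1)N, fs(1)M3 and tral, and the 10 in A4 include fs(1)N and fs(1)M3. As these 2 entered through their adult levels, they add no support to either count. After median centring 3 rose and 8 fell in A12 and 3 rose and 3 fell in A4. Leaving out the second A4 larval library or the first A4 adult library left 4 risers in A4, and leaving out the second A4 adult library left 6. Leaving out the second A12 adult library left 2 genes that fell in A12. Between adults 0 of the 17 were called in limma, with 2 at an unadjusted p under 0.05. Over all 9679 tested genes 0.734% were called and 1020 had such a p.

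In larvae 9 of these 17 endocytosis genes fell in A4 and 0 rose, where 25.9% of all tested genes fell and 8.75% rose. The median log2 difference was -0.96 against -0.43 over all tested genes. Chc stood at 96.8 and 91.5 FPKM in the A4 larvae against 234.9 and 205.6 FPKM in the A12 larvae, a log2 difference of -1.21 ± 0.19 (limma adjusted p = 0.00376). Leaving out the second A4 larval library or the first A12 larval library left 4 that fell, and quantile normalization left 5. Of 5 genes of lysosomal proteases, the class of enzymes that degrades yolk, 1 rose and 2 fell in A4 larvae, against the same 8.75% and 25.9%. Neither the rise nor the falls passed when the first A4 larval library or the first A12 larval library was left out. The falls also did not pass after median centring, nor the rise without the second A4 larval library. Between adults 0 of the 5 were called in limma, with 0 at an unadjusted p under 0.05, against 0.734% and 1020 of all 9679 tested genes.

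Genes known to regulate yolk gene transcription were taken next. Of 15 tested, 0 were called between adults in limma, with 1 at an unadjusted p under 0.05, against 0.734% and 1020 of all 9679 tested genes. Their adult median was 0.04, and 0.29 without A12 adults replicate 1. The count of 0 between adults did not hold in that fit, which leaves 1 A12 adult library. In larvae 6 fell in A4 and 0 rose, where 25.9% of all tested genes fell and 8.75% rose. Their median was -1.04 against -0.43 over all tested genes, and 2 fell and 1 rose after median centring. Leaving out the first A4 larval library left 3 that fell, and leaving out the second, or the first A12 larval library, left 2, as did quantile normalization. The gene slbo, a transcription factor of follicle cells, stood at 22.4 ± 10.5 FPKM in the A12 larvae and 0.486 ± 0.116 FPKM in the A4 larvae (SD, n = 2), a log2 difference of -3.90 ± 0.32 (limma adjusted p = 0.000279). In the adults it stood at 0.658 to 1.08 FPKM. From larvae to adults 4 of the 15 rose and 8 fell in A12, where 41.1% and 17.6% of all tested genes did. EcR, the ecdysone receptor gene, fell by 2.23 in A12 on the log2 scale (limma adjusted p = 0.000313) and by 1.28 in A4. The gene ftz-f1 went the other way, from 0.713 and 0.496 FPKM in the A12 larvae to 11.3 and 6.58 FPKM in the A12 adults. It averaged under 1 FPKM over the larvae and so entered the test through its adult level. The sex determination genes dsx and tra, which act upstream of the yolk genes, were listed at 0 in A12 adults replicate 1 and in both A4 adults, and at 2.67 and 5.41 FPKM in A12 adults replicate 2. An exact 0 can be a failed estimate, so no adult level of these genes is given.

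A few other genes had profiles over the 8 libraries close to those of the yolk genes. Closeness was the root mean square difference of log2(FPKM + 1) after each gene's own mean was taken off, and the 8 libraries fall into 2 stages, so that it mostly reads the size of the change between stages. Between the members it was 0.21 for Yp1 and Yp2, 0.30 for Yp1 and Yp3 and 0.75 for Yp3 and yl. The genes nearest to Yp1 were CG16826 at 0.38, ninaE at 0.45, dhd at 0.54, CG34172 at 0.61 and Cp16 at 0.64. Of these ninaE encodes the main rhodopsin of the adult eye, dhd a thioredoxin of the female germline and Cp16 a chorion protein. The genes nearest to yl were CG5107 at 0.18, CG5028 at 0.32, the vitelline membrane gene Vm34Ca at 0.34, CG18628 at 0.37 and Arr2, an arrestin of the adult eye, at 0.38. CG5107 stood at 477.7 and 476.6 FPKM in the A4 adults and 420.3 and 369.5 FPKM in the A12 adults, levels near those of yl.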

How the data were processed

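The labels' protocols name Ribo-Zero depletion, polyA RNA and TruSeq library preparation. The FPKM values and their confidence bounds were made by the authors, with Bowtie, Bowtie2, TopHat 0.6 and Cufflinks and build dm3 per the submitters' processing notes. Options, strand and read counts are not given in these sources. A further table of log2 ratios was deposited by the authors. Model starts were counted from 0 in the files, since spans then matched the RefSeq lengths of 6962 of 11575 models, against 120 otherwise.

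After removal of 17 models marked failed or high-data in some library, 9679 with a mean of at least 1 FPKM were tested on log2(FPKM + 1) with limma 3.58.1 in R 4.3.3. One fit held the 4 groups, with eBayes, a mean-variance trend and Benjamini-Hochberg adjustment over all tested genes at 0.05. The fit was tested on simulated data. Tables and figures used Python 3.11.15, pandas 2.3.3, numpy 2.4.6 and matplotlib 3.10.9. The labels do not say whether replicates were separate groups of animals, so p-values reflect the spread between libraries, which may be technical. Replicate numbers did not pair libraries: correlations of replicate 1 minus replicate 2 between groups were -0.062 to 0.086.

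The genes and lists were chosen with earlier results of these data known. Named genes were the 4 members, from each list up to 4 genes with the smallest p in the comparison described, and the 5 nearest profiles to Yp1 and yl. Neighbours by position, dsx, tra, twe, bol and gdl, and boca and Chc between stages, were named after their values were seen. So were Cp15, Cp7Fb, Cp7Fc, yellow-g2, Vm32E and Adh in the adult libraries. Models under 300 bases took 61.8% to 80.5% of all FPKM per library. Alternatives were other pseudocounts, filters, scalings and eBayes settings, a fit of only the groups compared, a block for replicate number and each library left out. The midpoint of the bounds and the counts of lists without each library were added after seeing the data.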

Additional observations from a re-analysis of the deposited data

How the results depend on the processing

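The rise of all 4 genes from larvae to adults passed in both genotypes under every alternative run, with log2 differences of 6.32 to 11.29 and adjusted p-values up to 0.000553. Runs with a filter admitted yl through its adult level alone. No genotype difference between adults passed under any alternative. Without each library in turn, the adult difference ran from -0.23 to 0.50 for Yp1, from -0.32 to 0.36 for Yp2, from -0.69 to -0.19 for Yp3 and from 0.02 to 0.37 for yl, and with midpoints it was -0.14 for Yp1 and -0.17 for Yp2. The larval difference of Yp2 turned to 0.37 after median centring, 0.37 with the replicate block on centred values, 0.15 after quantile normalization and 0.059 with midpoints, and ran from -0.31 to 0.13 without single libraries. That of yl turned to 0.38 after centring, with or without the replicate block, and ran from -0.17 to 0.020. The larval call of Yp3 was lost with a pseudocount of 5 (-0.35), after centring (-0.24, also with the replicate block), after quantile normalization (-0.44) and with midpoints (-0.38). It was also lost at an unchanged -0.70 without a filter (adjusted p = 0.0518), with larval libraries alone (0.0831) and with the replicate block (0.0577), a block that changed no other call of the 4 genes, and ran from -0.81 to -0.59 without single libraries. The interaction turned after centring, with or without the replicate block, to -0.32 for Yp2, -0.16 for Yp3 and -0.16 for yl, with midpoints to -0.23 for Yp2 and -0.32 for Yp3, and with a pseudocount of 5 to -0.089 for Yp3. Without single libraries it ran from -0.23 to 0.45 for Yp2. Called genes numbered 71 between adults, but 42 with a mean of at least 5 FPKM and 21 in a fit of adults alone. In larvae they numbered 3354, but 1036 in a fit of larvae alone and 1386 to 3385 without single libraries, and for the interaction 1704, but 637 to 1880 without single libraries. Called larval genes were 847 higher and 2507 lower, but 1326 and 982 after centring. The causes of these changes were not tested.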

Other observations

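The neighbours of Yp3 and yl also differed in level from them. Beside Yp3, Rtc1 stood at 30.8 to 39.8 FPKM and rdgB at 15.4 to 20.8 FPKM in the adults, where Yp3 stood at 2353 to 3797 FPKM. Beside yl, CG13403 went the other way between stages, with 15.5 to 84.0 FPKM in the larvae and 0.978 to 3.43 FPKM in the adults. The microRNA model mir-4917 lies within the span of yl and was listed at 0 in all 8 libraries.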
